A study of Mus musculus with 12 samples.

Results

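The genes described here are the epithelial alarmins and members of the interleukin-1 (IL-1) family, with their nearest relatives, in 2 mouse mammary tumour lines in which Nedd4 was targeted. They are the 10 rows carrying the symbols Il1a, Il1b, Il1rn, Il18, Il33, Il36g, Tslp, Il23a, Il12a and Il1rl1, of 56691 genes in the count tables. The list was chosen from a reading of the KO and control values of these same libraries, so the KO against control values of the 10 genes are given as a description: no p-value is printed for them, and the counts of called genes below are set beside those of all genes with nothing read from them. RNA was sequenced from 4 groups of 3 libraries: 4T1 KO cells and EMT6 KO cells, both labelled sgNEDD4, a guide RNA against the ubiquitin ligase gene Nedd4, and the 4T1 and EMT6 control cells, labelled WT. Both lines are mammary carcinoma lines from BALB/c mice, all 12 libraries were grown in culture with no animal host and with no treatment named in the labels, and the batch label is the same for all. Nothing states that the 3 libraries of a group are separate cultures or clones, so p-values measure the spread between these libraries, which may be technical.

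Alarmins are cytokines that barrier cells such as epithelium release when they are stressed, injured or invaded by microbes. The IL-1 family ligands Il1a and Il1b act through the receptor Il1r1 and its co-receptor Il1rap, Il18 through Il18r1 and Il18rap, Il36g through Il1rl2, and Il33 through Il1rl1, also called ST2. All of these receptors pass the signal through the adaptor Myd88 and IRAK kinases to NF-kappaB. Tslp, a cytokine of another family that signals through Crlf2 and Il7r, shares with Il33 the role of an epithelial alarmin that acts on innate lymphoid cells, mast cells and dendritic cells. Il23a and Il12a encode the p19 and p35 chains of the heterodimeric cytokines IL-23 and IL-12, each of which needs the shared p40 chain from Il12b.

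Total counts ran from 13705612 to 19761604 per library, so that 3 counts corresponded to 0.152 to 0.219 CPM (counts relative to all counts of that library). Nedd4 stood at 24.7 to 25.3 FPKM in 4T1 KO libraries, against 93.5 to 97.6 FPKM in 4T1 controls, which left 26.3% of the mean. In EMT6 it stood at 11.5 to 12.1 FPKM in KO libraries, against 116.5 to 122.5 FPKM in controls, which left 9.89%. FPKM are counts scaled by exon length and by the library's total count, so levels of different genes can be compared on them. Of 7 epithelial markers, 6 reached a mean of 0.5 FPKM in every 4T1 group, against 3 in EMT6 KO cells and 5 in EMT6 controls. In EMT6 the defining adhesion gene Cdh1 had 0 to 2 counts per library. Of 4 fibroblast markers, the collagen gene Col1a1 stood at 189 to 221 FPKM in EMT6 KO libraries and at 152 to 173 FPKM in EMT6 controls. Lum had 0 counts and Dcn 0 to 1 counts per EMT6 library. Pdgfra averaged 5.17 and 5.25 FPKM in 4T1 KO and control cells, and 4.83 and 5.55 FPKM in EMT6 KO and control cells. In EMT6 KO cells edgeR called Col1a1 higher (log2 change 0.30) and Pdgfra lower (-0.20), and in 4T1 it called neither. The summed FPKM of the 7 epithelial markers ran from 1353 to 1430 in 4T1 KO libraries and from 1879 to 1949 in 4T1 controls, and from 378.2 to 392.1 in EMT6 KO libraries and from 348 to 415 in EMT6 controls. Single markers moved in both lines: in 4T1 KO cells edgeR called Epcam, Krt8, Krt18 and Krt19 lower, and in EMT6 KO cells it called Krt18 (log2 change -1.23), Epcam (-1.59) and Krt14 (-3.15) lower and Krt8 (0.26), which makes up most of the EMT6 sum, higher. The part of these shifts in the results below was not tested. Of 15 leukocyte markers, the pan-leukocyte gene Ptprc had 0 counts in all EMT6 libraries and 6 to 21 counts in 4T1 libraries. In 4T1 KO cells 2 of the 15 reached a mean of 0.5 FPKM (Cd68 and Cd14), and in 4T1 controls 4 did, with Adgre1 and Fcer1g. Adgre1 averaged 0.43 FPKM in 4T1 KO cells and 0.53 FPKM in 4T1 controls, and Fcer1g 0.38 and 0.72 FPKM. The summed FPKM of the 15 ran from 26.8 to 30.3 in 4T1 KO libraries and from 25.3 to 28.0 in 4T1 controls. Of the 4 fitted in 4T1, edgeR called Cd68 higher (log2 change 0.61) and Cd14 lower (-0.76) in KO cells, and 2 were not called. The mast cell genes Kit, Fcer1a and Ms4a2 had 0 counts in all 12 libraries. The summed FPKM of 6 mast cell and innate lymphoid markers ran from 26.7 to 28.4 in 4T1 KO libraries and from 35.1 to 36.4 in 4T1 controls, nearly all of it Gata3, which luminal mammary epithelium also expresses.

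The promoters of Il33, Il1rl1 and Il1a are shown because these genes led the values below, and because Il33 and Il1rl1 each have 2 annotated starts that the gene-level counts cannot tell apart. The sequences are RefSeq's, in build GRCm38.p6, read 5′ to 3′ on the gene's strand from 250 bases before to 50 bases after the start. Il33 promoter 1 lies at chr19:29924863-29925162 and promoter 2 at chr19:29945540-29945839, both on the plus strand. Il1rl1 promoter 1 lies at chr1:40429320-40429619 and promoter 2 at chr1:40439379-40439678, both on the plus strand. The Il1a promoter lies at chr2:129309923-129310222 on the minus strand. Capitals mark matches to 4 letter patterns searched on both strands.
Il33 promoter 1: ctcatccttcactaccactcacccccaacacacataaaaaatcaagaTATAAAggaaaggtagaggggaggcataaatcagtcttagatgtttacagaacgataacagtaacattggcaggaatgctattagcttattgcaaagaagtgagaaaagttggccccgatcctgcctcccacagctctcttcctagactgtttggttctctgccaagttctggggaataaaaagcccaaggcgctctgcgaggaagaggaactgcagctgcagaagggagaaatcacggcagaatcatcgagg
Il33 promoter 2: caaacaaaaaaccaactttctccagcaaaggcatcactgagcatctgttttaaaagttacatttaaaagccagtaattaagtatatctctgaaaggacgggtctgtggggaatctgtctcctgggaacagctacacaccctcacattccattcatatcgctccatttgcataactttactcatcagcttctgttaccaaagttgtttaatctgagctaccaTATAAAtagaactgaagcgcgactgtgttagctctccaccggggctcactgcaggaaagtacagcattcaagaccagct
Il1rl1 promoter 1: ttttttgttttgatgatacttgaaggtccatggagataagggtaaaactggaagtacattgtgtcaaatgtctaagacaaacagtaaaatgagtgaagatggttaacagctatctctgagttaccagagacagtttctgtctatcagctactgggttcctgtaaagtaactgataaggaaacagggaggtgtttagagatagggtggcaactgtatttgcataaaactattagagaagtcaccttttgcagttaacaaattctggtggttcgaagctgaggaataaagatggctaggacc
Il1rl1 promoter 2: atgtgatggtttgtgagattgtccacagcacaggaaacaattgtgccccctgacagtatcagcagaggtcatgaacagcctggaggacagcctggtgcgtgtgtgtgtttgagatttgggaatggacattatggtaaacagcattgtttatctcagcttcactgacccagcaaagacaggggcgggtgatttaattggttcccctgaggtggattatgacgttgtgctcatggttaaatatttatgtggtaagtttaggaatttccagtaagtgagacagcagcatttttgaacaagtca
Il1a promoter: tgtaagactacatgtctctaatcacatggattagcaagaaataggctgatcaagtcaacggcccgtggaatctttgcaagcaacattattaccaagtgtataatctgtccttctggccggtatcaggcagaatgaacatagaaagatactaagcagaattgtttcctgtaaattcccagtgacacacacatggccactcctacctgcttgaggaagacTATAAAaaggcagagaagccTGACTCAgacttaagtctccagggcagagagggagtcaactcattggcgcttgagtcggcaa

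The patterns were TATAAA (the TATA box, in 13.6% of 32851 mouse promoters of this length), TGANTCA (AP-1, in 7.81%), GGG and CC with any 5 bases between (NF-kappaB, in 50.8%) and TTCNNNGAA (STAT, in 8.30%). In the Il1a promoter, TATAAA began 32 bases before the start and an AP-1 match began 12 bases before it. The TATAAA of Il33 promoter 2 began 29 bases before the start, the usual distance of a TATA box, and that of Il33 promoter 1 began 203 bases before it. Neither Il1rl1 promoter held any of the 4 patterns. A match or its lack is a description of these letters only. Promoters of 7 of the 10 genes were searched, namely Il1a, Il1b, Il1rn, Il18, Il33, Il12a and Il1rl1. The search left out chromosome 18, which holds Tslp.

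The members with the highest levels differed between the lines, while Il33, Il18 and Il23a were read in both. In 4T1 the highest were Il1a, Tslp and Il23a, in EMT6 KO cells Il1rl1, Il18 and Il33, and in EMT6 controls Il33, Il36g and Il18. In 4T1, Tslp and Il23a stood 3.13-fold and 2.91-fold lower in KO cells and Il1a 1.15-fold higher. In EMT6, Il33 and Il36g stood lower in KO cells and Il1rl1, the Il33 receptor, stood higher. In bulk RNA, fewer expressing cells and less RNA per cell cannot be told apart.

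**Figure D1:**
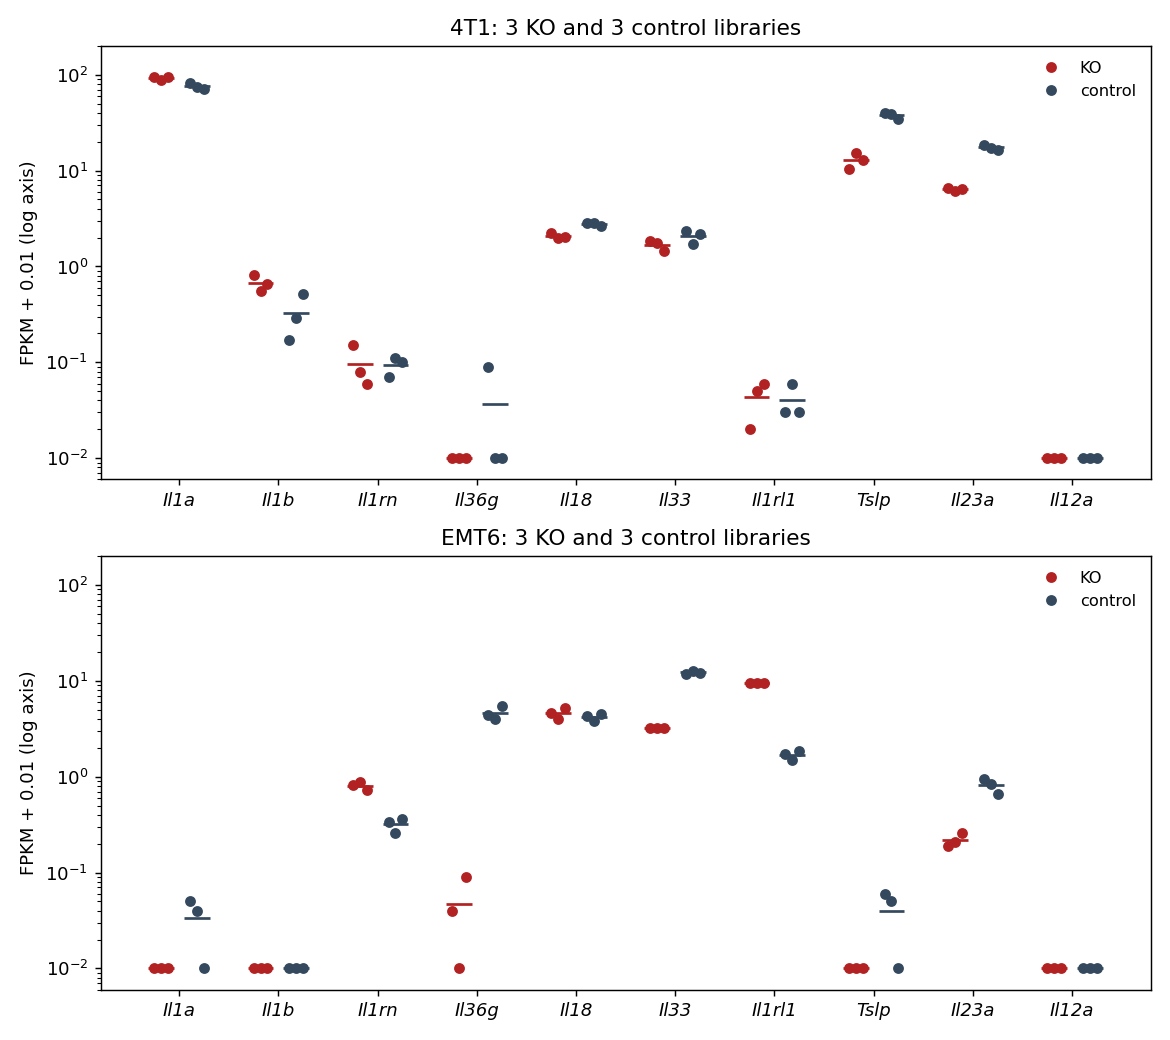
FPKM per library of the 10 genes on a log axis after adding 0.01, with KO libraries (red) left of control libraries (dark) and a bar at each group's mean of 3 libraries. In 4T1 the KO points lie below all controls for Tslp, Il23a and Il18, and in EMT6 for Il33, Il36g and Il23a, while Il1rl1 and Il1rn lie above them in EMT6. Points at 0.01 are libraries with 0 counts.

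Of the 10 genes, 6 had enough counts to be fitted in 4T1, and with edgeR 2 were called higher in KO cells (Il1a and Il1b), where 28.0% of all 13313 genes were, and 3 lower (Il33, Tslp and Il23a), where 29.0% were. In EMT6, 6 were fitted, of which 2 were called higher (Il1rl1 and Il1rn), where 27.9% of all 12890 genes were, and 3 lower (Il33, Il36g and Il23a), where 28.2% were. Called means an adjusted p under 0.05. The 4T1 calls of Il33 and Il1b were lost in 8 and 5 of 11 alternative fits, and those of Il1a, Tslp and Il23a in 0. By values alone, KO libraries lay wholly above controls for 2 of the 6 genes and wholly below for 3 in each line, leaving 1 with overlap, where 61.6% of all genes in 4T1 and 62.3% in EMT6 did not overlap. Because these contrasts chose the list, nothing is read from the counts. Il1rn, Il1rl1, Il36g and Il12a were too low to be fitted in 4T1, and Il1a, Il1b, Tslp and Il12a in EMT6.

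Il1a, which encodes the IL-1 alpha precursor that is stored in the nucleus and cytosol and released on damage, was the most abundant of the 10 in 4T1 per exon length. It is ENSMUSG00000027399, placed by the deposited tables on chromosome 2 at 129141530 to 129151892, minus strand, coordinates for which the tables' build could not be settled. In 4T1 KO libraries Il1a stood at 95.1, 88.1 and 95.9 FPKM, against 82.2, 75.0 and 71.9 FPKM in controls. Every KO library lay above every control, by a small margin. The log2 difference was 0.21 ± 0.05 (SE of the edgeR fit), or 1.15-fold. In EMT6, Il1a had 0 counts in each KO library and 1, 1 and 0 in the controls, so it was at the counting floor in both groups and no fold is given. The antisense gene Gm14023 overlaps Il1a and had 0 to 37 counts per library, and whether the counting used strand is not stated.

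Il1b, the secreted IL-1 that needs cleavage by caspase-1, was a low transcript. Its counts were 26, 17 and 22 in 4T1 KO libraries, against 5, 8 and 13 in 4T1 controls (0.81, 0.54 and 0.65 FPKM against 0.16, 0.28 and 0.50 FPKM). The groups did not overlap, and the log2 difference was 1.04 ± 0.40, with 0.71 when control replicate 1 was left out and 1.501 when control replicate 3 was. An antisense gene, Il1bos, overlaps it with 0 to 15 counts per library, and the counting's use of strand is unknown, so reads of this pair cannot be told apart. EMT6 had 0 counts of Il1b in all 6 libraries.

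Il1rn, the secreted antagonist that occupies Il1r1 without signalling, was low in both lines. Counts in EMT6 KO libraries were 87, 95 and 62, against 26, 25 and 37 in EMT6 controls (0.81, 0.87 and 0.71 FPKM against 0.33, 0.25 and 0.35 FPKM). All KO libraries lay above all controls, with a log2 difference of 1.38 ± 0.22. In 4T1 the counts were 13, 6 and 5 in KO libraries and 5, 8 and 7 in controls, which overlap.

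Il36g, an epithelial ligand of Il1rl2 known from inflamed skin and airway, was seen in EMT6 control cells and almost nowhere else. It is ENSMUSG00000044103, on chromosome 2 at 24076488 to 24083580, plus strand, as the tables print it. Its counts were 1, 0 and 2 in EMT6 KO libraries, against 104, 120 and 174 in EMT6 controls, and 0, 0 and 0 in 4T1 KO libraries, against 2, 0 and 0 in 4T1 controls. In FPKM, EMT6 controls stood at 4.41, 3.98 and 5.50, and no EMT6 KO library passed 0.08. Relative to library totals, the 3 KO libraries together held a ratio of 0.00711 of the control level (95% interval of the ratio 0.00146 to 0.0209, exact, counting error only). That is 141-fold lower in KO cells, with an interval of 47.8 to 685. The fitted log2 difference of -6.95 ± 0.41 moved between -7.88 and -6.37 on leaving out single libraries, since it rests on 3 counts in KO cells.

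Il18, a ligand cleaved by caspase-1 like Il1b, was read in both lines. 4T1 KO libraries stood at 2.23, 1.95 and 2.04 FPKM, against 2.82, 2.85 and 2.62 FPKM in 4T1 controls. EMT6 KO libraries stood at 4.6, 3.98 and 5.18 FPKM, against 4.34, 3.82 and 4.50 FPKM in EMT6 controls. The KO libraries were all below the controls in 4T1 and overlapped them in EMT6, with log2 differences of -0.49 ± 0.23 in 4T1 (1.41-fold lower) and 0.12 ± 0.18 in EMT6. Il18 overlaps the antisense genes Bco2, with 3 to 21 counts per library, and Tex12, with 0 to 3.

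Il33, a nuclear alarmin released from damaged epithelial and stromal cells, was the most abundant of the 10 in EMT6 controls. It is ENSMUSG00000024810, on chromosome 19 at 29902514 to 29938118, plus strand, as the tables print it. EMT6 KO libraries stood at 3.20, 3.24 and 3.19 FPKM, against 11.89, 12.77 and 12.04 FPKM in EMT6 controls. The KO libraries lay close together, far below every control, at a log2 difference of -1.93 ± 0.09, or 3.80-fold lower. In 4T1, KO libraries stood at 1.82, 1.73 and 1.44 FPKM, against 2.32, 1.71 and 2.15 FPKM in controls, and the groups overlapped. There the log2 difference was -0.39 ± 0.17, and it ran from -0.49 to -0.29 on leaving out single libraries. The difference of the log2 differences, EMT6 minus 4T1, was -1.53 ± 0.18.

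Il1rl1 encodes the Il33 receptor, both as a membrane form and as a soluble decoy that a gene-level count cannot separate. It is ENSMUSG00000026069, on chromosome 1 at 40468730 to 40504575, plus strand, as the tables print it. EMT6 KO libraries stood at 9.50, 9.56 and 9.45 FPKM, against 1.72, 1.49 and 1.84 FPKM in EMT6 controls. Each KO library lay far above the highest control, at a log2 difference of 2.50 ± 0.08, or 5.64-fold higher. In 4T1 Il1rl1 had 1, 4 and 6 counts in KO libraries and 2, 5 and 2 in controls. Ligand and receptor stood on opposite sides in EMT6 KO cells, with Il33 lower and Il1rl1 higher in all 3 libraries. Per exon length, Il1rl1 was the first of the 10 in EMT6 KO cells at 9.50 ± 0.0551 FPKM and the fourth in EMT6 controls at 1.68 ± 0.178 FPKM, while Il33 stood behind Il1rl1 and Il18 in KO cells at 3.21 ± 0.0265 FPKM and first in controls at 12.2 ± 0.471 FPKM (SD, n = 3 each).

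Tslp was read in 4T1 cells. 4T1 KO libraries stood at 10.39, 15.25 and 12.80 FPKM, from 234, 333 and 300 counts, against 39.59, 39.18 and 34.97 FPKM in 4T1 controls, from 851, 781 and 638 counts. The highest KO library held less than the lowest control, at a log2 difference of -1.65 ± 0.10, or 3.13-fold lower. EMT6 had 0 counts in each KO library and 1, 1 and 0 in the controls.

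Il23a, the p19 chain, was the one member below controls by more than 1 log2 unit in both lines. It is ENSMUSG00000025383, on chromosome 10 at 128132008 to 128134621, minus strand, as the tables print it. 4T1 KO libraries stood at 6.55, 6.10 and 6.42 FPKM, against 18.5, 17.4 and 16.6 FPKM in 4T1 controls, a log2 difference of -1.54 ± 0.08. EMT6 KO libraries had 8, 9 and 9 counts, against 30, 34 and 28 in EMT6 controls (0.18, 0.20 and 0.25 FPKM against 0.93, 0.83 and 0.65 FPKM), a log2 difference of -1.90 ± 0.35. KO and control libraries did not overlap in either line, though the EMT6 levels were under 1 FPKM throughout. The log2 differences of the 2 lines were themselves apart by -0.35 ± 0.29, EMT6 minus 4T1. Il12a, the p35 chain, had 0 counts in all 12 libraries.

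**Figure D2:**
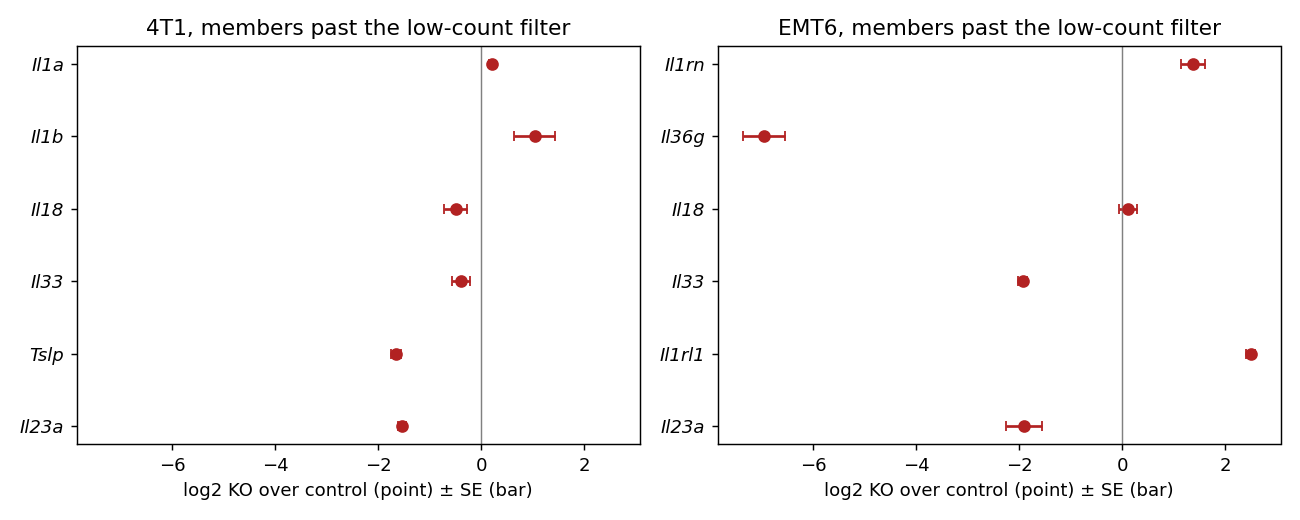
Log2 of KO over control from edgeR, with bars of 1 SE, for the 6 genes fitted in 4T1 (left) and the 6 fitted in EMT6 (right). Tslp and Il23a lie near -1.6 in 4T1, and Il36g at -6.95, Il33 and Il23a near -1.9 and Il1rl1 at 2.50 in EMT6.

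The order of levels within each group, per exon length, showed how unlike the lines were. In 4T1 KO cells and in 4T1 controls alike the order began with Il1a, Tslp, Il23a, Il18, Il33 and Il1b, and the range of each over its 3 libraries lay below that of the one before it. Il1a averaged 93.0 ± 4.27 FPKM in 4T1 KO cells and 76.4 ± 5.30 FPKM in 4T1 controls, and Tslp 12.8 ± 2.43 FPKM in 4T1 KO cells and 37.9 ± 2.56 FPKM in 4T1 controls (SD, n = 3 each). Levels of the 2 lines come from separate tables, in which each FPKM is scaled within its own library. In EMT6 KO cells the order was Il1rl1, Il18, Il33, Il1rn and Il23a, and in EMT6 controls it was Il33, Il36g, Il18, Il1rl1, Il23a and Il1rn. The neighbours Il36g, at 4.63 ± 0.784 FPKM, and Il18, at 4.22 ± 0.356 FPKM, overlapped in EMT6 controls. The genes below these were at or near 0 counts.

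Control 4T1 cells were then compared with control EMT6 cells in a fit of the raw counts of all 12 libraries, a contrast of the same control libraries that entered the choice of the list, and so again a description with no p-value. Of the 10 genes 9 were fitted, and edgeR called 4 higher in 4T1, where 37.2% of all 14301 genes were, and 5 lower, where 37.5% were. Genes at or near 0 in one line passed the low-count filter through the other, so nothing is read from these counts. Il1a had 6782 counts in the 3 4T1 controls together and 2 in the EMT6 controls, a 3918-fold ratio after scaling by library totals with a 95% counting interval of 1084 to 32357. Tslp had 2270 counts in 4T1 controls and 2 in EMT6 controls, a ratio of 1311 with an interval of 363 to 10834. For Il23a the log2 difference was 4.43 ± 0.13. Il1b had 26 counts in 4T1 controls and 0 in EMT6 controls, at least 10.0-fold higher in 4T1 when 3 counts over the group are taken as the floor. These 4 genes were higher in each 4T1 control than in any EMT6 control.

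The genes lower in 4T1 controls were those of the Il33 axis and 3 others. Il33 lay at a log2 difference of -2.60 ± 0.12, with 1.71 to 2.32 FPKM in 4T1 controls and 11.9 to 12.8 FPKM in EMT6 controls. Il1rl1 lay at -5.83 ± 0.25, from 9 counts in 4T1 controls and 602 in EMT6 controls. Il36g had 2 counts in 4T1 controls and 398 in EMT6 controls, so that EMT6 held 172 times the 4T1 level (counting interval 47.4 to 1427, EMT6 over 4T1). Il1rn differed by -1.94 ± 0.38 and Il18 by -0.63 ± 0.19, with all 4T1 controls below all EMT6 controls for both. The lines differ in many ways that this contrast cannot separate.

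The rest of the pathway was described from 6 lists of other genes, 69 in all. These lists were also chosen with earlier results of these data known, so their p-values and counts describe these libraries and are no independent test. The other IL-1 family ligands Il36a, Il36b, Il36rn and Il1f10 were too low to be fitted in either line. Among 8 receptors and decoys, 5 were fitted in 4T1, of which 1 was higher and 3 lower in KO cells (median log2 change -0.37, against 0.00 over all genes), and 6 in EMT6, of which 1 was higher and 5 lower (median -0.62, against 0.00). Of all fitted genes, 28.0% were called higher and 29.0% lower in 4T1, and 27.9% higher and 28.2% lower in EMT6. Il1rap, the co-receptor shared by the IL-1, Il33 and IL-36 receptors, fell by 0.44 ± 0.07 on the log2 scale in 4T1 (edgeR, adjusted p = 4.49e-06) and by 0.84 ± 0.07 in EMT6 (adjusted p = 7.01e-08), and the change was larger in EMT6 (interaction -0.39 ± 0.10, adjusted p = 0.00186). Sigirr, an inhibitory receptor of the family, fell by 0.68 ± 0.06 in 4T1 (edgeR, adjusted p = 1.72e-09) and by 0.81 ± 0.09 in EMT6 (adjusted p = 6.67e-07). Its level was 12.7, 13.1 and 12.8 FPKM in 4T1 KO libraries, against 20.2, 17.7 and 20.6 FPKM in 4T1 controls. Il18bp, the secreted decoy that binds Il18, rose by 0.75 ± 0.25 in 4T1 (edgeR, adjusted p = 0.0143) and by 1.00 ± 0.17 in EMT6 (adjusted p = 0.000112), and the 4T1 call was lost without KO replicate 3 (log2 change 0.63, adjusted p = 0.0727) or control replicate 2 (0.57, adjusted p = 0.0852).

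Il1r1, the signalling receptor of Il1a and Il1b, fell in EMT6 by 0.43 ± 0.06 (edgeR, adjusted p = 2.80e-05), with 6.92, 7.01 and 7.15 FPKM in KO libraries, against 9.94, 9.23 and 9.35 FPKM in controls. In 4T1 the Il1r1 log2 change was -0.19 ± 0.09 (edgeR, adjusted p = 0.0689), a miss that became a call without the low-count filter, with the replicate number as a block and without KO replicate 1 or control replicate 3 (adjusted p 0.0228 to 0.0471 over these 4). Il1rl2, the receptor of Il36g, fell by 0.92 ± 0.15 in EMT6 (edgeR, adjusted p = 9.27e-05), from 126, 144 and 73 counts in KO libraries, against 171, 191 and 246 in controls, and had 0 counts in every 4T1 library. Il18rap, the accessory chain of the Il18 receptor, fell by 0.37 ± 0.13 in 4T1 (edgeR, adjusted p = 0.0177) and 0.26 ± 0.07 in EMT6 (adjusted p = 0.00609), and the 4T1 call was lost when libraries were scaled by total counts only (adjusted p = 0.0632) or without control replicate 3 (adjusted p = 0.0667). The ligand-binding chain Il18r1 had 0 to 2 counts in all 12 libraries, a gene named after its values were seen.

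Among 8 partner chains and receptors of Tslp, Il23a and Il12a, 2 were fitted in 4T1, with 1 lower and 0 higher in KO cells (median -0.38), and 3 in EMT6, with 2 higher and 1 lower (median 0.91), beside 28.0% higher and 29.0% lower of all genes in 4T1 and 27.9% and 28.2% in EMT6. Crlf2, the Tslp receptor chain, rose by 0.91 ± 0.11 in EMT6 (edgeR, adjusted p = 4.73e-06), with 10.8, 11.1 and 11.4 FPKM in KO libraries, against 6.78, 5.23 and 5.85 FPKM in controls. In 4T1, the line that carried Tslp, the log2 change of Crlf2 was -0.23 ± 0.14 (adjusted p = 0.171), and the changes of the lines differed by 1.15 ± 0.18 (edgeR, adjusted p = 5.17e-06). Il7r, the other Tslp receptor chain, had 1 to 6 counts in 4T1 libraries and 0 in EMT6 libraries. Il12b, whose p40 chain both IL-23 and IL-12 need, had 2, 0 and 1 counts in 4T1 KO libraries and 0 in every other library. Il7r and Il12b were named after their values were seen. Il12rb1, the receptor chain shared by IL-12 and IL-23, fell by 0.53 ± 0.15 in 4T1 (edgeR, adjusted p = 0.00303) and by 0.43 ± 0.08 in EMT6 (adjusted p = 0.000214). Il23r rose in EMT6 (edgeR, adjusted p = 0.000613), from 28, 32 and 16 counts in KO libraries, against 2, 9 and 1 in controls, a log2 change of 2.53 ± 0.52 that lay between 2.01 and 3.84 on leaving out single libraries.

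**Figure D3:**
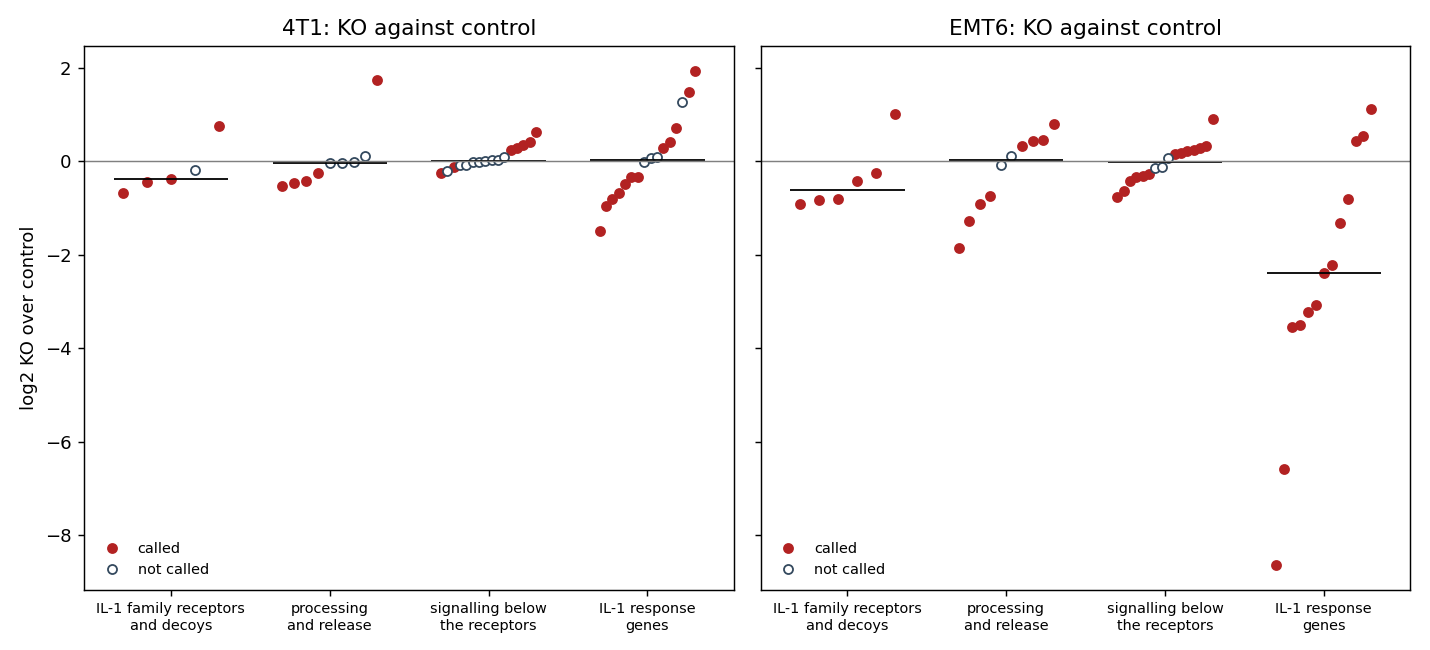
Log2 of KO over control for every fitted gene of 4 lists in 4T1 (left) and EMT6 (right), filled where edgeR called the change and open where it did not, with a line at each list's median. The IL-1 response genes spread on both sides of 0 in 4T1 (median 0.02) and lie mostly far below it in EMT6 (median -2.39), and 3 of 5 receptor genes in 4T1 and 5 of 6 in EMT6 are called lower.

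Processing and release genes, 15 in the list, were mixed. In 4T1, 9 were fitted, with 1 higher and 4 lower in KO cells (median -0.05), and in EMT6, 10 were fitted, with 4 higher and 4 lower (median 0.02). The shares of all genes were 28.0% higher and 29.0% lower in 4T1 and 27.9% higher and 28.2% lower in EMT6. Casp1, which cleaves the precursors of Il1b and Il18, fell by 0.74 ± 0.06 in EMT6 (edgeR, adjusted p = 3.58e-08), with 17.1, 17.7 and 17.1 FPKM in KO libraries, against 28.5, 29.9 and 28.6 FPKM in controls. Gsdmd, whose cleaved form makes the pore through which they leave, fell by 0.93 ± 0.06 in EMT6 (edgeR, adjusted p = 3.26e-09), with 29.6, 27.8 and 31.9 FPKM in KO libraries, against 55.2, 56.5 and 57.7 FPKM in controls. In 4T1, Casp1 had a log2 change of 0.11 ± 0.34 (adjusted p = 0.799) and Gsdmd of -0.05 ± 0.14 (edgeR, adjusted p = 0.780), and both changes differed between the lines (interaction adjusted p = 0.00935 for Casp1 and 1.80e-06 for Gsdmd). Casp4, the inflammatory caspase that senses lipopolysaccharide in the cytosol, moved in opposite directions, rising by 1.74 ± 0.33 in 4T1 (edgeR, adjusted p = 9.66e-05) and falling by 1.85 ± 0.21 in EMT6 (adjusted p = 1.87e-06). Its 4T1 level stayed low, at 0.54, 0.49 and 0.57 FPKM in KO libraries, against 0.15, 0.16 and 0.14 FPKM in controls. Pycard, the adaptor that joins inflammasome sensors to caspase-1 and a gene named after its values were seen, stood at or under 0.09 FPKM in all 12 libraries.

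Capn2, a catalytic subunit of calpain, the protease that cleaves the Il1a precursor, rose by 0.80 ± 0.06 in EMT6 (edgeR, adjusted p = 4.88e-09), a line with at most 1 count of Il1a per library, and had a log2 change of -0.02 ± 0.04 in 4T1 (adjusted p = 0.719). Capn1, the other calpain, fell by 0.25 ± 0.05 in 4T1 (edgeR, adjusted p = 0.000125) and had a log2 change of -0.07 ± 0.06 in EMT6 (adjusted p = 0.296). Tmed10, which carries leaderless cargo such as Il1b into the secretory path, fell by 0.47 ± 0.04 in 4T1 (edgeR, adjusted p = 1.14e-09) and rose by 0.32 ± 0.05 in EMT6 (adjusted p = 7.24e-05). Casp8, which can cleave the Il1b precursor, fell by 0.52 ± 0.06 in 4T1 (edgeR, adjusted p = 2.18e-08) and had a log2 change of 0.12 ± 0.06 in EMT6 (adjusted p = 0.125).

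Among 18 genes of the signalling chain below the receptors, 16 were fitted in each line. In 4T1, 5 were higher and 2 lower in KO cells (median 0.01), and in EMT6, 7 were higher and 6 lower (median -0.03), where all genes gave 28.0% higher and 29.0% lower in 4T1 and 27.9% and 28.2% in EMT6. The 2 lower calls in 4T1 became 1 in DESeq2 and 0 with total-count scaling or without KO replicate 3, and 1 without any one of the control replicates 1, 2 and 3. In EMT6 the higher calls numbered 5 to 6 on leaving out single libraries, and so did the lower calls. Ikbkg, the regulatory subunit of the IkappaB kinase also called NEMO, rose in both lines, by 0.63 ± 0.06 in 4T1 (edgeR, adjusted p = 1.11e-08) and 0.90 ± 0.07 in EMT6 (adjusted p = 1.64e-08). Its level in EMT6 was 11.7, 11.9 and 13.6 FPKM in KO libraries, against 6.47, 6.71 and 6.79 FPKM in controls. Ikbkb, the catalytic subunit of the same kinase, fell by 0.64 ± 0.06 in EMT6 (edgeR, adjusted p = 2.20e-07) and had a log2 change of 0.01 ± 0.05 in 4T1 (adjusted p = 0.830). Irak1, the kinase recruited to Myd88, rose by 0.24 ± 0.05 in 4T1 (edgeR, adjusted p = 0.000251) and 0.23 ± 0.06 in EMT6 (adjusted p = 0.00230). Tab1, a partner of the kinase Map3k7, rose by 0.40 ± 0.09 in 4T1 (edgeR, adjusted p = 0.000358) and fell by 0.42 ± 0.08 in EMT6 (adjusted p = 0.000322).

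Peli1, a ubiquitin ligase of this chain, fell by 0.77 ± 0.09 in EMT6 (edgeR, adjusted p = 1.25e-06), and Nfkb1, the p105 and p50 subunit gene, fell there by 0.35 ± 0.06 (adjusted p = 4.88e-05). Neither passed the threshold in 4T1, with edgeR adjusted p = 0.845 for Peli1 and 0.914 for Nfkb1. Tollip, an inhibitor of the chain, rose by 0.28 ± 0.05 in 4T1 (edgeR, adjusted p = 6.66e-05), while its EMT6 change of 0.16 ± 0.06 (adjusted p = 0.0443) was lost in DESeq2 (adjusted p = 0.0733) and without KO replicate 1, 2 or 3 or control replicate 1 (adjusted p 0.0668 to 0.173).

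The IL-1 response list holds 16 genes that IL-1 is known to induce through NF-kappaB. Like the other lists, it was chosen with earlier results of these data known, so its counts and medians are a description. In EMT6, 13 were fitted, with 10 lower and 3 higher in KO cells and a median log2 change of -2.39, against 28.2% lower, 27.9% higher and a median of 0.00 over all genes. In 4T1, 16 were fitted, with 7 lower and 5 higher and a median of 0.02, against 29.0% lower, 28.0% higher and 0.00 over all genes. Cxcl5, a neutrophil chemokine, fell by 3.55 ± 0.08 in EMT6 (edgeR, adjusted p = 9.78e-15), with 25.2, 26.4 and 28.3 FPKM in KO libraries, against 330, 328 and 278 FPKM in controls. Lcn2, an iron-sequestering defence protein, stood at 0.16, 0.19 and 0.24 FPKM in EMT6 KO libraries, against 73.4, 68.4 and 93.4 FPKM in EMT6 controls, a log2 change of -8.63 ± 0.19 (edgeR, adjusted p = 7.09e-11). In 4T1, Cxcl5 rose by 0.41 ± 0.04 (edgeR, adjusted p = 2.28e-08) and Lcn2 had a log2 change of 0.06 ± 0.06 (adjusted p = 0.430). The changes of both genes differed between the lines, by -3.95 ± 0.09 for Cxcl5 and -8.68 ± 0.20 for Lcn2 (edgeR, adjusted p = 9.79e-24 and 3.35e-17).

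Csf3, the granulocyte growth factor, fell in both lines. In 4T1 it stood at 55.3, 55.4 and 51.3 FPKM in KO libraries, against 144, 139 and 147 FPKM in controls, a log2 change of -1.49 ± 0.05 (edgeR, adjusted p = 3.31e-17). In EMT6 it had 7, 3 and 1 counts in KO libraries, against 302, 379 and 347 in controls, a log2 change of -6.59 ± 0.25 (edgeR, adjusted p = 2.58e-12). Cxcl1, another neutrophil chemokine, fell by 0.35 ± 0.05 in 4T1 (edgeR, adjusted p = 2.24e-06) and fell by 2.39 ± 0.09 in EMT6 (adjusted p = 4.73e-10). Ptgs2, the inducible cyclooxygenase, fell by 0.68 ± 0.04 in 4T1 (edgeR, adjusted p = 3.10e-12) and 0.80 ± 0.08 in EMT6 (adjusted p = 8.94e-07), and those changes did not pass the test of a difference between the lines (interaction -0.12 ± 0.09, adjusted p = 0.289).

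Other genes of the list went the other way. Tnfaip3, the A20 brake on NF-kappaB, rose by 1.12 ± 0.08 in EMT6 (edgeR, adjusted p = 3.38e-09) and fell by 0.48 ± 0.05 in 4T1 (adjusted p = 3.29e-09). Icam1, a leukocyte adhesion molecule, rose by 1.93 ± 0.17 in 4T1 (edgeR, adjusted p = 1.42e-09), with 2.38, 2.66 and 2.23 FPKM in KO libraries, against 0.53, 0.78 and 0.49 FPKM in controls. In EMT6 it was too low to be fitted, with 9, 6 and 6 counts in KO libraries and 0, 1 and 0 in controls. Leukocyte markers that EMT6 does carry moved both ways beside these genes. Cd68 ran from 6.67 to 8.45 FPKM in EMT6 KO libraries and from 17.8 to 21.7 FPKM in EMT6 controls, Cd14 from 8.44 to 9.49 FPKM in KO libraries and from 10.1 to 12.03 FPKM in controls, and Csf1r from 0.94 to 1.10 FPKM in KO libraries and from 0.40 to 0.58 FPKM in controls. The summed FPKM of the 15 leukocyte markers ran from 16.5 to 18.3 in KO libraries and from 29.2 to 34.9 in controls. The defining markers Ptprc, Itgam, Adgre1 and Tyrobp had 0 counts in all 6 EMT6 libraries.

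**Figure D4:**
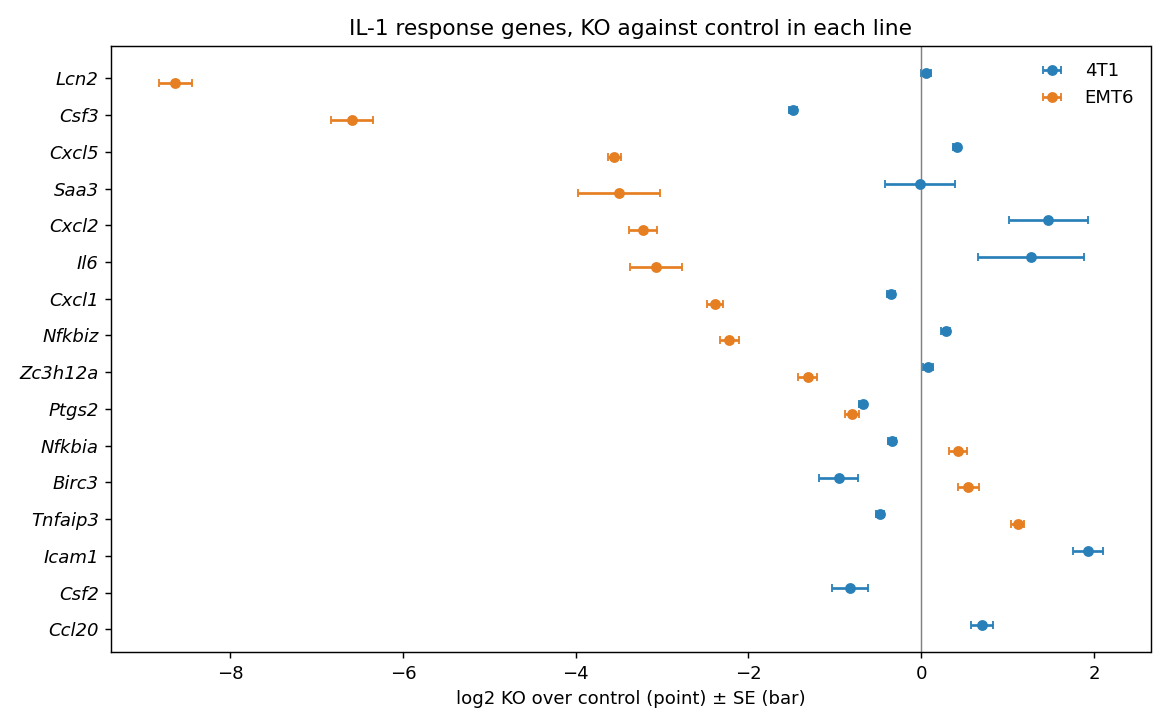
Log2 of KO over control from edgeR with bars of 1 SE for the IL-1 response genes, in 4T1 (blue) and EMT6 (orange), ordered by the EMT6 value. Lcn2, Csf3 and Cxcl5 lie at -8.63, -6.59 and -3.55 in EMT6 and at 0.06, -1.49 and 0.41 in 4T1, while Tnfaip3 lies at 1.12 in EMT6 and -0.48 in 4T1. Icam1, Csf2 and Ccl20 have no EMT6 point because they were too low to be fitted there.

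Across the pathway lists and all other genes fitted in the 12 libraries, 53.4% of 14301 genes had a KO change that differed between the lines. Of the 10 genes described here, 3 had enough counts to be fitted in each line alone. They were Il33, Il23a and Il18, whose differences were -1.53 ± 0.18, -0.35 ± 0.29 and 0.62 ± 0.27 log2 units, EMT6 minus 4T1. Il1rn and Il1rl1, too low to be fitted in 4T1 alone, lay at 1.39 ± 0.55 and 2.48 ± 0.68 in the fit of all 12 libraries. For Il1a, Il1b, Il36g and Tslp, at or near 0 counts in one of the lines, no difference is given.

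The genes that went most closely with a member over the 12 libraries were found by Pearson's r of log2 CPM. They are a description, since the 4 groups and the library depths are shared by all genes. Like means a high r only, which takes no account of level or of the size of a change. Card10, paired with Il23a below, averaged 19.7 and 26.7 FPKM in EMT6 KO and control cells, where Il23a averaged 0.21 and 0.80 FPKM. Il33 was most like Nckap5l (r = 0.991), with 2.11 FPKM in EMT6 KO cells and 8.29 FPKM in EMT6 controls, and Grn (r = 0.990), the progranulin gene. Grn differed less, at 68.9 FPKM in EMT6 KO cells and 89.5 FPKM in EMT6 controls. Il1rl1 was most like H2-Q4 (r = 0.994), an MHC class I gene whose near-identical relatives make its counts uncertain, and Tnfrsf11b (r = 0.994). Tnfrsf11b encodes the decoy receptor osteoprotegerin and averaged 10.2 FPKM in EMT6 KO cells and 1.42 FPKM in EMT6 controls. Tslp was most like Nbeal2 (r = 0.999) and C1qb (r = 0.998), and Il1a like Col4a2 (r = 0.999) and Zfp704 (r = 0.999). C1qb and Zfp704 stayed under 1 FPKM in every group's mean. For Il23a they were Card10 (r = 0.997) and Atad2 (r = 0.996), for Il18 Lancl2 (r = 0.981) and Pon3 (r = 0.980), and for Il36g Prkaa2 and Lama4 (both r = 0.987), genes that reached at most 0.187 FPKM in any group's mean.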

How the data were processed

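The deposited tables, 1 per line, hold raw read counts per gene and FPKM for 6 libraries each. The tools named in the submitters' processing notes are HTSeq 0.6.1, HISAT2 2.2.1, cutadapt 1.9.1 and DESeq2, with the genome GRCm38, and the notes give no roles. The deposited FPKM matched counts scaled by exonic length and library total within 0.005 for 100% of values, so FPKM depend on no scaling shared across libraries. Start and end of the 10 genes matched the GRCm38 annotation GENCODE M21 for 0 of 10, so gene coordinates are printed without a build. The strand setting is not given.

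Counts were fitted in R 4.3.3 with edgeR 4.0.16 (filterByExpr, TMM, robust quasi-likelihood test, 2-sided), per line for KO against control and over all 12 libraries, with raw counts of both tables, for the control lines and for the interaction of line and knockout (EMT6 minus 4T1). P-values were adjusted by Benjamini-Hochberg over all fitted genes. SE is the log2 change divided by the square root of F. Alternatives were DESeq2 1.42.0, its size factors, total-count scaling, no low-count filter, the replicate number as a block, each library left out, and FPKM with pseudocounts of 0.1 and 1. Ratios of summed counts carry exact 95% intervals, which take in only the error of counting, as these reads carry no molecular identifiers.

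The 10 genes and all lists were chosen with earlier results of these data known. Named beside the 10 genes are up to 4 called genes of each pathway list and line with the lowest adjusted p, and for each of the 10 with a mean of at least 1 FPKM the 2 genes of highest correlation. Any other gene is said to be named after its values were seen. No permutation test is given, because 3 libraries against 3 allow no p under 0.1.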

Additional observations from a re-analysis of the deposited data

Results flagged for a closer look

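For 19 of the pathway genes described above, the KO effect in EMT6 differed from that in 4T1 (edgeR, interaction on the log2 scale, EMT6 minus 4T1, adjusted over 14301 genes, of which 53.4% differed). These genes were named for a low adjusted p in either line, a choice that bears on this count, so nothing is read from it. List genes that were not named above are left out here, also where their changes differed. Among the response genes, the difference was -8.68 for Lcn2, -5.09 for Csf3, -3.95 for Cxcl5, -2.03 for Cxcl1 and 1.60 for Tnfaip3. Among the processing genes it was -3.58 for Casp4, -0.87 for Gsdmd, -0.84 for Casp1, 0.83 for Capn2, 0.80 for Tmed10, 0.65 for Casp8 and 0.18 for Capn1, the last with an adjusted p of 0.0426. Among receptors and partner chains it was 1.15 for Crlf2 and -0.39 for Il1rap. Among the signalling genes it was -0.81 for Tab1, -0.75 for Peli1, -0.64 for Ikbkb, -0.35 for Nfkb1 and 0.27 for Ikbkg. The value of Csf3 rests on 1 to 7 counts per EMT6 KO library. Groups of 3 libraries are too small for a check of single outlying libraries.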

How the results depend on the processing

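Among the 10 genes, whose calls are a description, 5 were called in 4T1, and 3 in DESeq2 and 3 to 4 on leaving out single libraries, with 3 without KO replicate 3 or control replicate 1. The calls lost were those of Il33, in 8 of 11 alternative fits, and Il1b, in 5 of 11. In EMT6, 5 were called in every alternative, and 9 in every alternative of the control lines. Receptors called higher in 4T1 (Il18bp) numbered 1, and 0 to 1 without single libraries. Signalling genes called lower in 4T1 numbered 2, and 1 in DESeq2, 0 with total-count scaling and 0 to 2 without single libraries. Those called in EMT6 numbered 7 higher and 6 lower, and 5 to 6 in each direction without single libraries. No called value changed sign under the alternatives run. With total-count scaling the median of all 4T1 changes shifted by 0.0787 on the log2 scale, 61.1% of 4T1 calls were higher in KO cells, against 49.1% with TMM, and the share of interaction calls above 0 was 42.1%, against 50.2%. Replicate numbers did not pair the libraries: deviations of same-numbered KO and control libraries correlated at -0.02, -0.01 and 0.01 in 4T1 and at -0.13, -0.01 and -0.11 in EMT6. With the replicate block, 7676 genes were called in 4T1 (7589 without), 6830 in EMT6 (7224), 10594 between control lines (10682) and 7550 in the interaction (7638). Pseudocounts shrank low genes, with Il36g in EMT6 at -2.44 for a pseudocount of 1 and Il23a in EMT6 at -0.58. Depth limits Il1b, Il1rn and Il36g, and fewer than 4 counts per library cannot be read as expression or its lack.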
